A study of Mus musculus with 30 samples.

Results

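Kidneys of mice whose vascular smooth muscle (VSM) cells lack the EGF receptor (KO) were compared with kidneys of wild-type mice (WT) after a standard fat diet (SFD), over all genes counted. The members are 8 of the 30 libraries of the series, which holds 16 kidneys and 14 aortae. The 4 WT kidneys came from mice WT-SFD-1309, WT-SFD-1446, WT-SFD-1694 and WT-SFD-1695, and the 4 KO kidneys from mice KO-SFD-1303, KO-SFD-1318, KO-SFD-1319 and KO-SFD-1451, and values per mouse are given in this order. KO mice carried floxed Egfr alleles together with Smmhc-Cre, a Cre recombinase that tamoxifen activates and that the promoter of the smooth muscle myosin heavy chain gene Myh11 drives. WT mice carried the same Cre transgene and no loxP sites. The transgene sits on the Y chromosome, so the mice were males. All mice of both genotypes, controls included, received tamoxifen on 5 days, and the diet began 7 days later at 6 weeks of age and lasted 18 weeks. The labels give C57Bl6J as the strain background of every library, and the floxed and the Cre line are described as C57BL/6 and C57BL/6N. The mice on high fat diet (HFD) are 8 other animals, 4 per genotype. Of the aortae, 3 WT-SFD and 3 KO-SFD libraries are set beside the kidney. Among the SFD mice only WT-SFD-1309 and KO-SFD-1319 gave both organs.

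EGFR is a receptor tyrosine kinase that ligands such as EGF activate, alone or paired with its relatives ErbB2, ErbB3 and ErbB4, and one of its main outputs is the MAP kinase cascade. In the kidney, tubule cells carry most of the receptor and the distal tubule makes the ligand EGF, while smooth muscle cells line the renal arteries and arterioles. The deletion therefore acts in a cell type that is a small part of the organ whose RNA was sequenced. In such whole-organ RNA, fewer cells of a type and less RNA per cell cannot be told apart.

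The total count per library ran from 16354880 to 28331314, with 17833253, 16354880, 28331314 and 23524775 counts in the WT and 19502589, 19814411, 19460215 and 18327872 in the KO libraries. Genes filtered for low counts left 15034 genes for the test. Levels are given as FPM, which here is the CPM that edgeR gives after TMM scaling, and are not corrected for gene length. The 8 libraries carried the kidney's own genes. The most abundant genes by mean level were Gpx3, the plasma glutathione peroxidase made by the proximal tubule, and Kap, an androgen-dependent proximal tubule gene. Gpx3 averaged 20020 FPM in WT and 19330 FPM in KO kidneys, and Kap 18150 and 19370 FPM. Umod, uromodulin of the loop of Henle, was at 4052 to 5688 FPM, and Slc34a1, the phosphate transporter of the proximal tubule, at 5895 to 9308 FPM. No library was a copy of another: over the 28 pairs the correlation of log2 levels across genes, which are not independent replicates, was 0.970 to 0.991. Its median was 0.985 within a genotype and 0.985 between genotypes. KO-SFD-1318 stood a little apart, with a median correlation of 0.979 with the other 7 libraries against 0.983 to 0.989 for the rest. No counts were present on chromosomes 9, X, Y and MT or beyond position 97427712 on chromosome 8, and the 12.2% of protein-coding genes there are not analysed here. Nnt, which carries a deletion in C57BL/6J, was counted at 213 to 326 FPM in all 8 kidneys. Its log2 fold change in KO against WT was 0.18 on SFD and 0.60 on HFD. On HFD its unadjusted p was under 0.05 in edgeR's quasi-likelihood test, without passing an adjusted p of 0.05. Counts per gene do not show which exons the reads came from.

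The targeted gene did not pass the test in the whole kidney. Egfr (chromosome 11, chr11:16752203-16918158, plus strand, GRCm38) was at 58.4, 39.1, 51.0 and 53.0 FPM in the WT kidneys, in the order above, and at 52.7, 46.7, 60.8 and 54.0 FPM in the KO kidneys. The groups overlapped throughout, and the log2 fold change was 0.09 with a standard error (SE) of 0.132 (edgeR quasi-likelihood test, adjusted p = 0.843). On HFD it was -0.09. In the aorta, where smooth muscle makes up most of the wall, the log2 fold change of Egfr was -0.64 (adjusted p = 0.531), with 39.5 to 54.3 FPM in 3 WT and 26.8 to 35.5 FPM in 3 KO aortae. The smooth muscle genes Myh11 and Acta2 were counted in every kidney. Of 20 smooth muscle genes listed, 15 were tested and 3 lie on chromosomes without counts. Myh11, the gene whose promoter drives Cre, was at 15.9 to 24.5 FPM, and Acta2, smooth muscle actin, at 19.2 to 36.8 FPM.

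The related receptors and the ligands were measured beside it. Erbb2 had a log2 fold change of 0.03, and with KO-SFD-1318 and KO-SFD-1319 left out it was -0.01. Erbb3 had -0.21 and Erbb4 0.25, and none passed the test. Per kilobase of annotated exon, with the exons of all isoforms joined, the mean WT level was 22.6 FPM for Erbb3, 22.3 for Erbb2, 4.45 for Egfr and 1.2 for Erbb4. Of 11 ligand genes 6 were tested. Egf itself ran from 1277 to 1714 FPM in the WT and from 1083 to 1661 FPM in the KO kidneys. Nrg2, a neuregulin that binds ErbB3 and ErbB4, was the ligand with the smallest p, at 0.325, 0.251, 0.343 and 0.448 FPM in the WT and 0.868, 0.431, 0.920 and 0.929 FPM in the KO kidneys (log2 fold change 1.16, adjusted p = 0.456). Only KO-SFD-1318 lay within the WT range.

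Over all genes, few differences passed a test. No gene passed an adjusted p of 0.001, the limit the study used, and 2 genes passed 0.05, both lower in the KO kidneys: Camk2b and Pisd-ps2. That is 0% of the 15034 genes for higher levels in KO and 0.0133% for lower levels. At an unadjusted p under 0.05 there were 681 higher genes (4.53%) and 626 lower genes (4.16%), and without single mice 444 to 962 higher and 309 to 870 lower genes, both lowest without KO-SFD-1318. The counts of list members without single mice below stand beside these moving counts over all genes. A change in such a count is therefore not particular to its list. The 4 WT and the 4 KO values did not overlap for 285 genes higher (1.90%) and 314 lower (2.09%) in the KO kidneys. By effect size, taken here as a Cohen's d beyond 2 with a ratio of means beyond 1.5 and a mean above 5 FPM, 36 of 10818 genes were higher (0.333%) and 23 lower (0.213%), with no test attached. DESeq2 put 4 genes under 0.001 and 26 under 0.05, and edgeR's exact test 5 and 15. Besides Camk2b and Pisd-ps2, both of these called Ciart, Cbr2, Pisd-ps1, Gm26917 and C430014B12Rik under 0.05, DESeq2 alone of the 2 called, among others, Trib3, Ddit3, Chac1, Sphk1, Spns2, Sult1a1, Acsl3 and Cyp39a1, and the exact test alone of the 2 Tfrc.

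**Figure D1:**
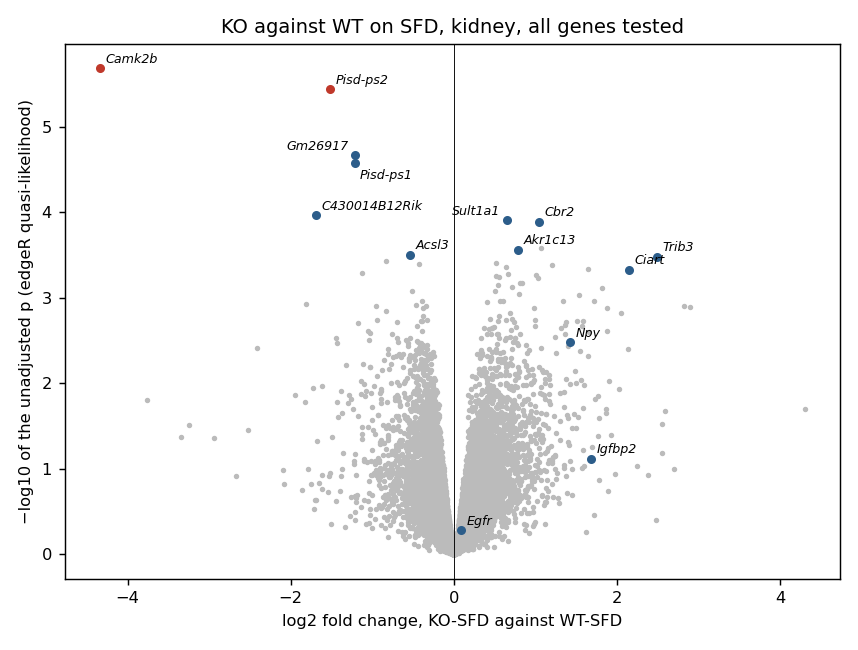
Each point is 1 of the 15034 genes tested in the kidney. The x axis is the log2 fold change of KO-SFD against WT-SFD (4 mice each), the y axis -log10 of the unadjusted p of edgeR's quasi-likelihood test, and named genes are coloured. Camk2b and Pisd-ps2, in red, are the 2 genes with an adjusted p under 0.05, and Egfr lies near 0 on both axes.

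Camk2b, the beta subunit of the calcium/calmodulin-dependent protein kinase II (CaMKII), had the larger fall. It was at 8.13, 6.16, 2.71 and 2.15 FPM in the WT kidneys and at 0.193, 0.216, 0.0511 and 0.437 FPM in the KO kidneys, from 375 counts in the WT and 17 in the KO libraries. The lowest WT kidney lay well above the highest KO kidney, and among the WT kidneys WT-SFD-1309 and WT-SFD-1446 lay above the other 2. The log2 fold change was -4.34 (SE 0.616, adjusted p = 0.0271), a 20.3-fold fall. The adjusted p was 0.0566 without WT-SFD-1446, 0.0789 without KO-SFD-1303, 0.0958 without KO-SFD-1318 and 0.109 without KO-SFD-1319, with the sign unchanged. The 8 mice on HFD gave -3.78 (adjusted p = 0.0847), with 2.73 to 6.94 FPM in WT and 0.216 to 0.443 FPM in KO kidneys, again without overlap. In the aorta the fold change was 0.33 (adjusted p = 0.811), with 12.0 to 15.9 FPM in WT and 12.6 to 24.0 FPM in KO.

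Camk2g and Camk2d were more abundant than Camk2b. Per kilobase of annotated exon, with the exons of all isoforms joined, the mean WT level was 4.68 FPM for Camk2g, 1.02 for Camk2d and 0.525 for Camk2b. Camk2d was at 22.4, 23.5, 23.8 and 21.8 FPM in the WT and at 20.6, 19.0, 17.5 and 20.6 FPM in the KO kidneys (log2 fold change -0.24, adjusted p = 0.549). The groups did not overlap for Camk2d, and they did for Camk2g (log2 fold change -0.16).

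Pisd-ps2 and Pisd-ps1 are pseudogene copies of Pisd, the mitochondrial phosphatidylserine decarboxylase. Pisd-ps2 (chromosome 17) was at 20.98, 15.3, 23.0 and 25.2 FPM in the WT and at 7.43, 8.46, 7.52 and 6.17 FPM in the KO kidneys (log2 fold change -1.52, SE 0.223, adjusted p = 0.0271). Pisd-ps1 (chr11:3125904-3131004, plus strand, GRCm38) was at 81.7, 73.8, 96.8 and 107.0 FPM against 35.3, 51.0, 36.3 and 32.3 FPM (log2 fold change -1.22, adjusted p = 0.0984). Neither overlapped between the genotypes. For Pisd-ps2 the adjusted p was 0.0700 without WT-SFD-1694, 0.0740 without WT-SFD-1695 and 0.0789 to 0.146 without any 1 of the KO mice, at log2 fold changes from -1.59 to -1.43. The copies are so alike that reads may have been split between them, so the counts of each alone are uncertain. Pisd itself had a log2 fold change of -0.05 (adjusted p = 0.905). In the aorta Pisd-ps2 had -1.76 and Pisd-ps1 -1.74, with adjusted p = 4.44e-05 and 0.000111. On HFD the kidney values were smaller, at -0.54 and -0.37, and the WT and KO kidneys overlapped.

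**Figure D2:**
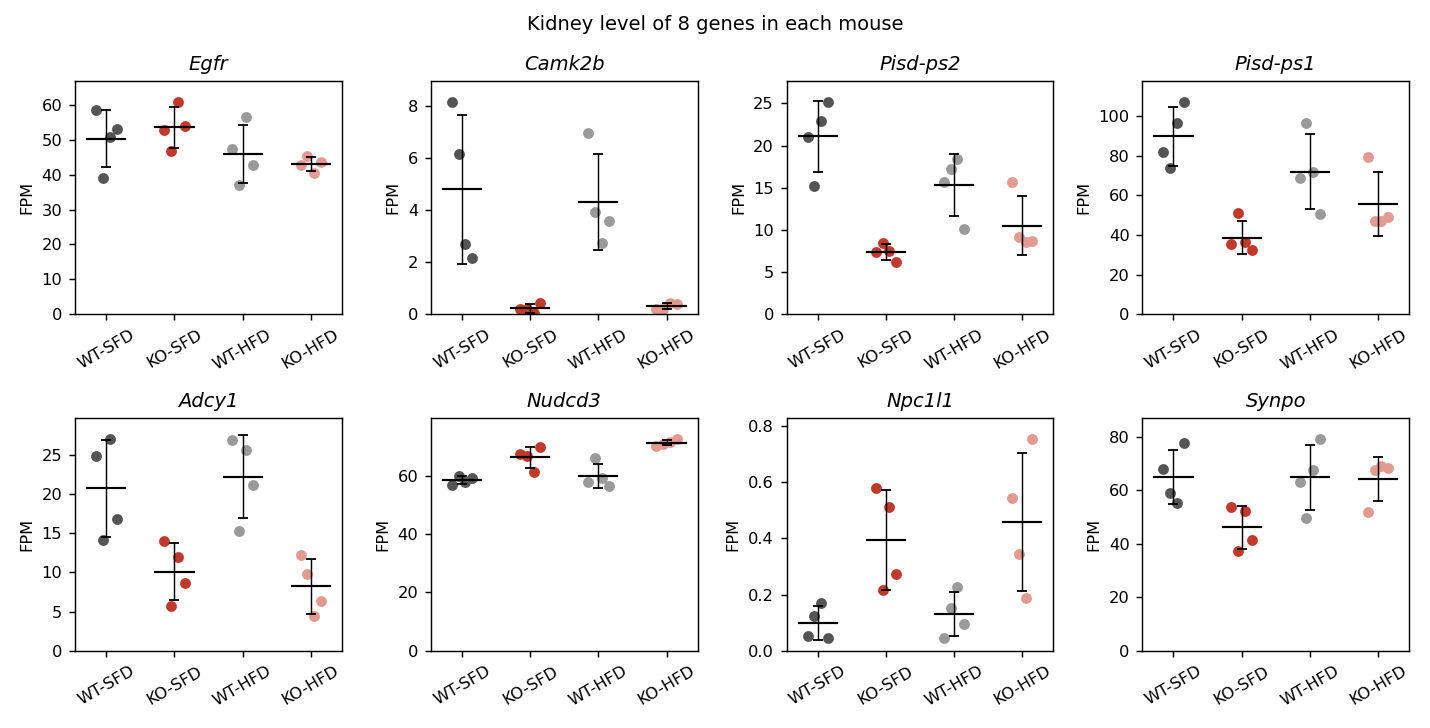
Kidney level in FPM (y axis, linear from 0) of 8 genes in each of 16 mice, by genotype and diet (x axis, 4 mice per group). Horizontal bars are means and error bars SDs. Camk2b, Adcy1 and Nudcd3 separate WT from KO on both diets, Pisd-ps1, Pisd-ps2, Npc1l1 and Synpo on SFD, and Egfr on neither.

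The HFD kidneys share no animal with the SFD kidneys and serve as a second look at genotype. On HFD 139 genes were higher (0.925%) and 124 lower (0.825%) in KO at an unadjusted p under 0.05, and 0% passed an adjusted p of 0.05 (smallest 0.0847). No gene passed that limit in the edgeR test of the difference in genotype effect between the diets (0%, smallest adjusted p = 1). By that test 503 genes had an unadjusted p under 0.05, and DESeq2 called 1 gene. In the aorta 12 of 14796 genes (0.0811%) passed an adjusted p of 0.05 in KO against WT on SFD. Of the 1307 kidney genes with an unadjusted p under 0.05 on SFD, 61.4% had the same sign on HFD, beside 55.7% of all genes.

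For 9 genes (0.0599%) the WT and KO kidneys did not overlap on either diet and the direction was the same. Among them Camk2b, Adcy1, Sfi1, Etaa1 and Paip1 lay lower in KO, and Nudcd3, Sun2 and Gm13431 higher. Of the 9 genes, 5 lie in the first 28 Mb of chromosome 11, the stretch that also holds Egfr, where 158 of the 15034 tested genes (1.05%) are located. Of the 35 genes with an unadjusted p under 0.05 and the same sign on both diets, 9 lie there. Every KO mouse carries the floxed Egfr allele on this chromosome and no WT mouse does, so the deletion and the DNA that came with the floxed allele cannot be told apart for these genes.

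Adcy1 (9.69 Mb before Egfr), an adenylyl cyclase that calcium and calmodulin stimulate, was at 24.9, 14.1, 27.0 and 16.8 FPM in the WT and at 13.9, 5.77, 12.0 and 8.63 FPM in the KO kidneys. The log2 fold change was -1.04 on SFD (adjusted p = 0.432) and -1.42 on HFD, a difference in the opposite direction from the aorta. There Adcy1 was at 3.03 to 4.64 FPM in the WT and at 198 to 289 FPM in the KO libraries (log2 fold change 5.84, adjusted p = 2e-09). Nudcd3, a cochaperone of dynein, is the neighbour of Camk2b and went the other way, with 56.8, 59.9, 57.8 and 59.3 FPM in the WT kidneys and 67.4, 66.6, 61.3 and 69.8 FPM in those of KO mice (log2 fold change 0.18, and 0.25 on HFD). Npc1l1, the sterol transporter that ezetimibe blocks, was near the detection limit, with 9 counts in the 4 WT and 31 in the 4 KO kidneys on SFD. Its log2 fold change was 1.88 on SFD and 1.84 on HFD, and the groups did not overlap on SFD.

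The remaining chromosome 11 genes without overlap on either diet were Etaa1, a factor of the replication stress response, and Sfi1, a centrosome gene. Etaa1 lies 1.19 Mb after the start of Egfr and Sfi1 13.6 Mb before it. Etaa1 was at 6.89 to 7.40 FPM in WT and 5.06 to 5.79 FPM in KO kidneys (log2 fold change -0.33). Sfi1 was at 39.8 to 46.8 FPM in WT and 34.2 to 37.7 FPM in KO kidneys (log2 fold change -0.25). Outside chromosome 11, Paip1, which binds the poly(A)-binding protein, had -0.38 on SFD and -0.35 on HFD. Sun2, a nuclear envelope protein, had 0.22 and 0.18, and the non-coding Gm13431 1.14 and 0.75. Gm13431 was near the detection limit, with 26 counts in the WT and 52 in the KO kidneys on SFD. Paip1 starts at 119.43 Mb of chromosome 13. Close to it, 3110070M22Rik (mean 0.690 FPM in WT on SFD) and Gm7120, both at 119.49 Mb, had -1.62 and -1.42 on SFD. On HFD they had -2.03 and -1.36, with an unadjusted p under 0.05 on each diet. The part of the strain background in these values was not tested. By distance from Egfr, 5 of 33 tested genes within 5 Mb, 6 of 36 between 5 and 10 Mb and 22 of 146 between 10 and 20 Mb had an unadjusted p under 0.05 on SFD. Between 20 and 40 Mb it was 9 of 138, and beyond 40 Mb 105 of 1040.

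**Figure D3:**
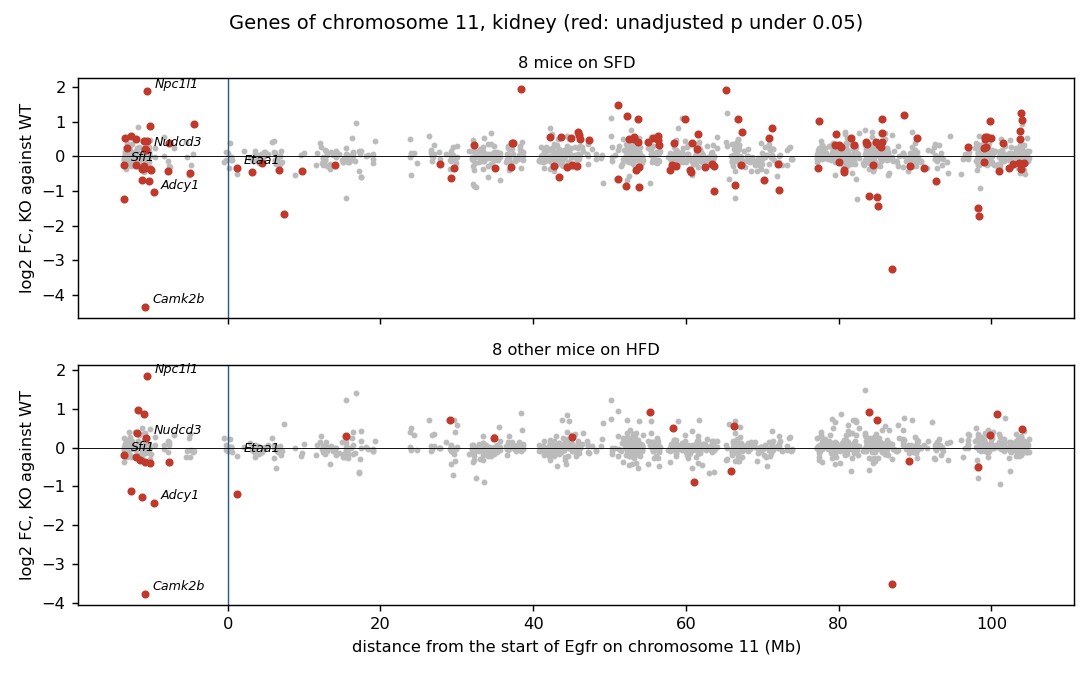
Log2 fold change of KO against WT (y axis) for the genes of chromosome 11, by distance from the start of Egfr in Mb (x axis), in the kidneys of 8 mice on SFD (top) and 8 other mice on HFD (bottom). Red points have an unadjusted p under 0.05. Camk2b, Adcy1 and Npc1l1 take the same side on both diets, at -4.34, -1.04 and 1.88 on SFD.

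The next genes by p did not pass an adjusted p of 0.05 in edgeR's quasi-likelihood test, although DESeq2 called each one in this paragraph except Gltpd2. Lower in the KO kidneys without overlap were the non-coding Gm26917 (161 to 243 FPM in WT, 76.1 to 106 FPM in KO, log2 fold change -1.21, adjusted p = 0.0984), the non-coding C430014B12Rik (log2 fold change -1.69) and Acsl3, which activates long-chain fatty acids (19.4 to 28.3 FPM against 15.3 to 19.2 FPM, log2 fold change -0.53). Higher without overlap were Sult1a1, a phenol sulfotransferase (9.87 to 13.7 FPM against 15.03 to 19.9 FPM, log2 fold change 0.65), Cbr2, a carbonyl reductase (3.14 to 4.69 FPM against 5.98 to 10.3 FPM, log2 fold change 1.04), and Akr1c13, an aldo-keto reductase (13.6 to 18.0 FPM against 20.9 to 38.8 FPM, log2 fold change 0.79). The other higher genes were Gltpd2, Spns2 and the non-coding RP24.159O13.1, with log2 fold changes of 1.06, 0.52 and 1.2. Spns2 exports sphingosine 1-phosphate. Sphk1, the kinase that makes it, was at 17.2, 11.2, 15.4 and 7.85 FPM in the WT and at 27.2, 32.6, 18.7 and 25.7 FPM in the KO kidneys (log2 fold change 1.01, adjusted p = 0.371). These sphingolipid genes had log2 fold changes of 0.13 and 0.10 on HFD.

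By effect size, the largest ratios above 1 belonged to Igfbp2, an insulin-like growth factor binding protein, Npy, the neuropeptide, Ccl19-ps1, Bhlhe41 and Cbr2. Igfbp2 was at 11.1, 8.80, 8.98 and 0.986 FPM in the WT and at 23.2, 31.9, 10.2 and 29.9 FPM in the KO kidneys (log2 fold change 1.68, adjusted p = 0.608), and KO-SFD-1319 lay within the WT range. Npy was at 1.52 to 4.73 FPM against 6.19 to 14.01 FPM (log2 fold change 1.43, adjusted p = 0.432). The lowest ratios among the genes called lower belonged to Pisd-ps2, Arntl, Npas2, Pisd-ps1 and Gm26917. Among the other genes called lower were Tfrc, the transferrin receptor (62.7 to 77.6 FPM against 36.7 to 52.2 FPM), Ndrg1, a stress-responsive gene (1987 to 3090 FPM against 907 to 1828 FPM), and Ccl28, a mucosal chemokine. Ccl28 was at 17.6 to 21.4 FPM in WT and 7.22 to 15.7 FPM in KO kidneys on SFD (log2 fold change -0.94), and its values on HFD separated the other way (log2 fold change 0.76).

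Against the 4.53% and 4.16% of all genes above, the circadian clock genes had the largest share of members at an unadjusted p under 0.05 among the 46 lists. The clock is a loop in which ARNTL (BMAL1) with CLOCK or NPAS2 switches on the Per, Cry and Nr1d genes and the output factors Dbp and Tef through E-box sequences, and their products switch it off again. Of 18 clock genes tested, 11 were higher and 3 lower in KO at an unadjusted p under 0.05, with a median log2 fold change of 0.38 on SFD and 0.14 on HFD. Over all genes the median was 0.00. None passed an adjusted p of 0.05 in edgeR's quasi-likelihood test, while Ciart did with DESeq2 and with the exact test. The 11 became 5 without WT-SFD-1446, 6 without WT-SFD-1694 and 5 without KO-SFD-1319. Amino acid and stress response genes were highest in the same KO mice: Trib3, Ddit3 and Chac1 of the stress list, with Asns, Mthfd2, Phgdh, Atf5 and Adm2, which were picked after their values were seen. The promoters of genes from these 2 groups are shown because the factors concerned read short known sequences. They are RefSeq promoters of GRCm38.p6, from 250 bases before to 50 bases after the start. Capitals in the first 3 mark the E-box CACGTG, and in the other 3 the core of the amino acid response element, TGATGNAA, searched on both strands.
Ciart, chr3:95882179-95882478, minus strand: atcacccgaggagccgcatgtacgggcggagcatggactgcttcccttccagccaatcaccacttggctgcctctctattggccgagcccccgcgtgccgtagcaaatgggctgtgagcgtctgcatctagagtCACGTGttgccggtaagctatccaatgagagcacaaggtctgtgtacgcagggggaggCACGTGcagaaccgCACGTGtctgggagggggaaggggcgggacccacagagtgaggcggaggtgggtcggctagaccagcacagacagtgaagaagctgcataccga
Per1, chr11:69098699-69098998, plus strand: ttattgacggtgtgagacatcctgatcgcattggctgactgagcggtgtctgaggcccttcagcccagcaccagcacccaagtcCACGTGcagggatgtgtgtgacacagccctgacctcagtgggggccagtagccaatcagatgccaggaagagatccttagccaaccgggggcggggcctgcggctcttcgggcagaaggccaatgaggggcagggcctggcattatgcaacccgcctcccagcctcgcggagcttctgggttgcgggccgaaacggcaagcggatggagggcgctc
Bhlhe41, chr6:145865371-145865670, minus strand: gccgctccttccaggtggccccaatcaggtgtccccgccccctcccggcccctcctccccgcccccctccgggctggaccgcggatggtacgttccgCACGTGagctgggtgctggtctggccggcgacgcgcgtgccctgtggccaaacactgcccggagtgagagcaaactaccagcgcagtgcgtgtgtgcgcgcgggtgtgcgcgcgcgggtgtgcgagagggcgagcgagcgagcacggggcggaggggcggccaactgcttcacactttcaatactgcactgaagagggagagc
Trib3, chr2:152344011-152344310, minus strand: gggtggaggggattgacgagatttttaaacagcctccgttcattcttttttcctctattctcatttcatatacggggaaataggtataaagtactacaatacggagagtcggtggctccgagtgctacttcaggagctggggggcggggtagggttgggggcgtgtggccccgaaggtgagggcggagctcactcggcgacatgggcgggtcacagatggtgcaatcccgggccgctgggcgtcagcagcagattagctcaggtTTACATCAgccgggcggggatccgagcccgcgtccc
Chac1, chr2:119350992-119351291, plus strand: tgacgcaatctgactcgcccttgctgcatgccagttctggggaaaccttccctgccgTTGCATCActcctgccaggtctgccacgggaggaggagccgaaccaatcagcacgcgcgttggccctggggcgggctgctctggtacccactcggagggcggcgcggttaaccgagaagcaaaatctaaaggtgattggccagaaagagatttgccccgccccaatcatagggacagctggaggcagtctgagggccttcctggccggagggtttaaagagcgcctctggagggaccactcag
Asns, chr6:7693160-7693459, minus strand: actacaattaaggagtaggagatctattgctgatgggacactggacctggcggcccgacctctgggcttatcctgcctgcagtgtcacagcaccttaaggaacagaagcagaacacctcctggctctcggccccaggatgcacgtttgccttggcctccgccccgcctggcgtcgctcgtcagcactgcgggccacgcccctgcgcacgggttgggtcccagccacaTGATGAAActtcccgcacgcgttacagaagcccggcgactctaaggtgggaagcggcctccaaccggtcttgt
The E-box stands 3 times in the window of Ciart and once in those of Per1 and Bhlhe41. Of 15 tested clock genes with a sequence, 5 held it, as did 11.2% of the 10063 tested genes with a sequence and 8.09% of all 27025 genes with one. The amino acid response element was in the windows of 3 of the 23 stress and amino acid genes with a sequence, in those of 2.78% of the tested genes with a sequence and in those of 4.51% of all genes with one. None of the 6 windows holds both motifs, and a match is a description of the sequence only.

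The clock values turned on 2 mice. Ciart, a repressor of the clock, was at 4.83, 2.26, 3.84 and 3.003 FPM in the WT kidneys and at 5.497, 22.2, 28.8 and 6.12 FPM in the KO kidneys. Dbp, an output factor, was at 83.2, 20.2, 28.1 and 46.8 FPM against 71.2, 235, 253 and 95.6 FPM. Arntl, the positive arm, was at 11, 16.5, 17.1 and 15.5 FPM against 10.6, 3.02, 1.02 and 8.41 FPM. KO-SFD-1318 and KO-SFD-1319 lay far from the other 6 kidneys, and KO-SFD-1303 and KO-SFD-1451 lay near the WT range. Npas2 had a pattern like that of Arntl (7.32 to 15.3 FPM against 5.83, 3.34, 0.818 and 7.05 FPM). Per1 was high in KO-SFD-1319 alone, at 130 FPM, with 16.7 to 39.5 FPM in the WT and 26.5 to 45.5 FPM in the other KO kidneys. Log2 fold changes were 2.15 for Ciart, 1.88 for Dbp, 1.36 for Bhlhe41, 1.17 for Per1, -1.38 for Arntl and -1.29 for Npas2. When KO-SFD-1318 and KO-SFD-1319 were left out, 1 of the 18 genes was higher and 0 lower at an unadjusted p under 0.05, a limit that 3.32% of the 15514 genes tested in that fit passed as higher and 1.53% as lower, and Ciart, Dbp and Arntl had 0.72, 0.90 and -0.66.

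Clock genes of the 2 SFD mice that gave both organs were also counted in the aorta. Arntl was at 1.21 FPM in that of KO-SFD-1319 and at 15.3 FPM in that of WT-SFD-1309, and Ciart at 21.6 and 3.41 FPM. Aortae of both genotypes took either level: Arntl was at 1.16 FPM in 1 WT aorta and at 22.9 FPM in 1 KO aorta. The time of day at which each mouse was killed is not given in the sources used here, so its part in the clock values was not tested.

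The stress genes had the same 2 mice at the top. Trib3, a pseudokinase that ATF4 and CHOP induce, was at 0.813, 1.82, 1.47 and 1.12 FPM in the WT and at 1.398, 15.8, 8.998 and 3.496 FPM in the KO kidneys (log2 fold change 2.50, adjusted p = 0.371). Ddit3, which encodes CHOP, was at 14.3, 17.3, 12.9 and 12.9 FPM against 21.5, 98.7, 37.8 and 20.2 FPM (log2 fold change 1.64). Chac1, which degrades glutathione, was at 1.25, 1.51, 1.44 and 1.88 FPM against 2.70, 15.9, 4.81 and 2.08 FPM (log2 fold change 2.05). All 4 KO kidneys lay above the WT range for Ddit3 and Chac1, and KO-SFD-1318 was the highest for all 3 genes. Asns, asparagine synthetase, was at 3.36 to 6.85 FPM in WT and at 4.29, 22.6, 24.0 and 6.72 FPM in KO kidneys. Mthfd2, a mitochondrial folate enzyme, was at 3.14 to 4.96 FPM against 4.20, 20.8, 25.8 and 6.39 FPM. Phgdh, the first enzyme of serine synthesis, was at 5.53, 6.28, 4.15 and 1.57 FPM in the WT and at 7.81, 18.3, 9.36 and 8.03 FPM in the KO kidneys (log2 fold change 1.34, and 0.89 without KO-SFD-1318 and KO-SFD-1319). Atf5, a transcription factor of the same response, was at 25.1, 33.2, 23.5 and 20.1 FPM against 28.5, 97.2, 137 and 25.6 FPM (log2 fold change 1.51, and 0.09 without those 2 mice). Adm2, a peptide of the adrenomedullin family, was at 1.199 to 2.01 FPM in WT and at 1.35, 23.9, 16.6 and 1.26 FPM in KO kidneys, a log2 fold change of 2.82 that was -0.21 without KO-SFD-1318 and KO-SFD-1319. Without those 2 mice the log2 fold changes were 0.88 for Trib3, 0.55 for Ddit3 and 0.65 for Chac1. Of the 21 tested genes of the heat shock and ER stress list, to which these 3 belong, 3 were higher (5 without WT-SFD-1446) and 2 lower, with a median of -0.07, and on HFD none had an unadjusted p under 0.05. The 2 lower genes became 1 without WT-SFD-1309 and 0 without WT-SFD-1446 or WT-SFD-1694.

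**Figure D4:**
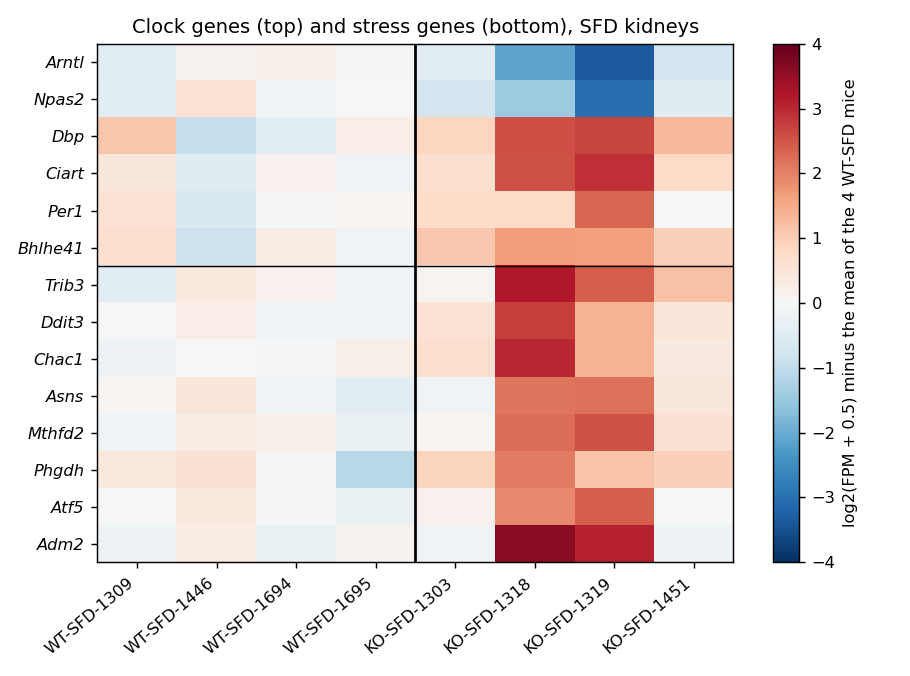
Colour gives log2(FPM + 0.5) minus the mean of the 4 WT-SFD mice, on a scale from -4 to 4, for 6 clock genes (top) and 8 stress and amino acid genes (bottom) in each SFD kidney (columns). KO-SFD-1318 and KO-SFD-1319 carry the strongest colours, with Ciart at 22.2 and 28.8 FPM there against 2.26 to 4.83 FPM in WT.

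Genes of the nephron segments gave small differences in different directions, and none that is named below passed an adjusted p of 0.05. Podocytes, the filtering cells of the glomerulus, had 6 of 14 genes lower and 0 higher in KO at an unadjusted p under 0.05 (median log2 fold change -0.22, and -0.05 on HFD). Synpo, a podocyte actin-binding protein, was at 68.1, 59.1, 55.1 and 77.7 FPM in the WT and at 53.7, 37.5, 52.3 and 41.5 FPM in the KO kidneys (log2 fold change -0.49, adjusted p = 0.443). Podxl, podocalyxin, was at 119 to 160 FPM in WT and 98.5 to 113 FPM in KO kidneys. Both separated the genotypes on SFD. With KO-SFD-1318 and KO-SFD-1319 left out, 3 of the 14 were lower, with a median of -0.19. The 6 also became 3 without WT-SFD-1309, 2 without WT-SFD-1695 and 3 without KO-SFD-1318.

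The distal convoluted and connecting tubule, which reabsorbs sodium chloride through the thiazide-sensitive cotransporter and calcium through TRPV5, had 6 of 12 genes lower and 0 higher (median -0.37, and 0.02 on HFD). Slc12a3, that cotransporter, was at 654, 760, 599 and 709 FPM in the WT and at 464, 443, 564 and 531 FPM in the KO kidneys (log2 fold change -0.44, adjusted p = 0.444). Kl, the FGF23 co-receptor klotho, was at 420 to 593 FPM against 292 to 415 FPM. The calcium channel Trpv5 was at 6.58 to 8.92 FPM against 3.29 to 6.51 FPM, and Sgms2, a sphingomyelin synthase, at 88.8 to 108 FPM against 59.1 to 86.2 FPM. The genotypes did not overlap for these 4 genes. The log2 fold change of Calb1, the calcium buffer of these cells, was -0.56, with 145 to 157 FPM in the KO kidneys and 155 to 292 FPM in the WT. Summed over the list, the level was 2071 to 2488 FPM in WT and 1589 to 2090 FPM in KO kidneys. When KO-SFD-1318 and KO-SFD-1319 were left out, 1 of the 12 was lower at that p and 11 had a negative sign, as before. The 6 became 2 without WT-SFD-1309, 2 without KO-SFD-1318 and 3 without KO-SFD-1451 (medians -0.28, -0.26 and -0.39). Without KO-SFD-1318 the count of lower genes over all genes was also at its lowest.

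The thick ascending limb of Henle's loop had a median above 0. Of 12 genes, 3 were higher and 0 lower (median 0.26, and -0.12 on HFD). Wfdc15b and Ppp1r1a, a phosphatase inhibitor, had log2 fold changes of 0.57 and 0.48. Umod was at 4874, 4853, 5140 and 4052 FPM in the WT and at 5416, 5688, 5501 and 5544 FPM in the KO kidneys, without overlap (log2 fold change 0.23, adjusted p = 0.708). Without KO-SFD-1318 and KO-SFD-1319 the 12 genes held none with an unadjusted p under 0.05 and had a median of 0.25, and none passed that p without WT-SFD-1695 or without KO-SFD-1318 alone.

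Of 39 proximal tubule transporters, 7 were lower and 0 higher, and 33 had a negative sign (median -0.24, and 0.02 on HFD). Slco1a6, an organic anion transporter, was at 211, 188, 191 and 199 FPM in the WT and at 154, 143, 148 and 150 FPM in the KO kidneys, without overlap (log2 fold change -0.41, SE 0.110, adjusted p = 0.432). Slc22a8, the organic anion transporter OAT3, had -0.54 and Slc7a8, an amino acid exchanger, -0.48. Lrp2, megalin of endocytosis, was at 1342 to 1845 FPM against 914 to 1435 FPM. Of 24 metabolic genes of the segment, 3 were lower and 0 higher: Gatm of creatine synthesis (-0.70), Gldc of glycine cleavage (-0.71) and Keg1 (-0.46). With KO-SFD-1318 and KO-SFD-1319 left out, 1 of the 39 transporters and 0 of the 24 metabolic genes were under that p. The log2 fold changes in that fit were -0.38 for Slco1a6, -0.38 for Slc22a8, -0.33 for Slc7a8, -0.48 for Gatm, -0.24 for Gldc and -0.22 for Keg1. The 7 transporters became 12 without WT-SFD-1694 and 4 without KO-SFD-1318. The 3 metabolic genes became 0 without WT-SFD-1446 or KO-SFD-1319 and 1 without WT-SFD-1695 or KO-SFD-1318. In the collecting duct, Fxyd4, a regulator of the sodium pump, was the 1 gene of 17 under that p (log2 fold change 0.95), and Aqp2, the vasopressin-regulated water channel, was at 510 to 1513 FPM in WT and 627 to 1260 FPM in KO kidneys. Within the Slc and Slco genes as a whole, 13 of 281 were higher and 24 lower.

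**Figure D5:**
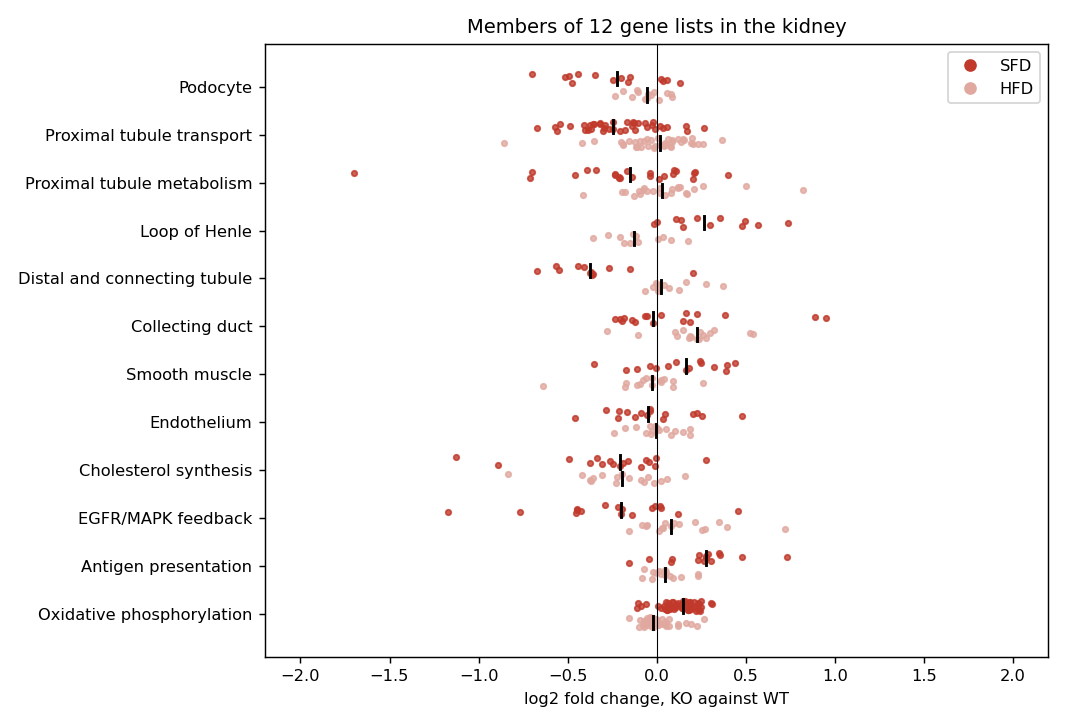
Log2 fold change of KO against WT in the kidney (x axis) for the tested members of 12 gene lists (rows), on SFD (dark points, upper) and on HFD (pale points, lower). Each point is a gene and each black bar the median of the list. On SFD the medians are -0.37 for the distal and connecting tubule, -0.24 for proximal tubule transport, -0.22 for podocytes and 0.26 for the loop of Henle.

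Cholesterol synthesis had members lower on both diets at an unadjusted p under 0.05. Of 17 genes of the list, 6 were lower and 0 higher on SFD and 3 lower on HFD at an unadjusted p under 0.05, and the medians were -0.20 and -0.19. Srebf2, the transcription factor of the pathway, was at 137, 147, 146 and 144 FPM in the WT and at 131, 102, 124 and 127 FPM in the KO kidneys, without overlap (log2 fold change -0.24, adjusted p = 0.497, and 0.02 on HFD). When KO-SFD-1318 and KO-SFD-1319 were left out, 1 of the 17 was lower, and Srebf2 had a log2 fold change of -0.155. Without single mice 4 to 7 were lower, and without WT-SFD-1694 the median was -0.10 with 11 negative signs against 16 with all mice.

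Genes that report MAP kinase activity downstream of EGFR were next. Of 17 feedback genes, 6 were lower and 0 higher at an unadjusted p under 0.05 on SFD (median -0.20, and 0.08 on HFD). Etv1, an ETS factor, was at 8.19, 6.72, 5.38 and 9.55 FPM in the WT and at 5.40, 3.40, 3.07 and 5.57 FPM in the KO kidneys (log2 fold change -0.77, adjusted p = 0.443). Dusp4 and Dusp6, phosphatases that switch off MAP kinases, had -0.45 and -0.43. The genotypes overlapped for all 3. Without KO-SFD-1318 and KO-SFD-1319, 0 of the 17 genes had an unadjusted p under 0.05 and the median was -0.05, while without KO-SFD-1318 alone 3 were lower. Of 23 immediate early and SRF target genes, 1 was higher and 1 lower, with a median of -0.03.

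No gene of the vessel wall passed an adjusted p of 0.05 in edgeR's quasi-likelihood test with all mice. Of 15 smooth muscle genes 3 were higher and 0 lower: Myl9, the regulatory light chain (47.0 to 65.2 FPM in WT, 54.0 to 96.6 FPM in KO), Des, desmin (log2 fold change 0.39), and Smtn, smoothelin (0.25). The summed level of the list was 393 to 420 FPM in WT and 387 to 492 FPM in KO kidneys. The 3 became 5 without WT-SFD-1446, 1 without WT-SFD-1695 and 0 without KO-SFD-1318. Of 23 vascular tone genes 1 was higher and 3 lower, among them Rgs2, which dampens Gq signalling (log2 fold change 0.39), Avpr1a, the vasopressin V1a receptor (-0.65), and Adra1a, the alpha-1A adrenoceptor (-0.55), and the 3 lower ones became 1 without WT-SFD-1309 or KO-SFD-1318 and 0 without KO-SFD-1319. None of 11 renin-angiotensin genes had an unadjusted p under 0.05 (median -0.13), but 2 were lower without WT-SFD-1694 (median -0.25) and 1 without WT-SFD-1309, WT-SFD-1446, KO-SFD-1318 or KO-SFD-1319. Ren1 ran from 39.8 to 143 FPM in WT and from 46.3 to 78.3 FPM in KO kidneys. Of 16 endothelial genes 1 was lower and of 8 pericyte and mesangial genes 1 was higher. Among 32 fibroblast and matrix genes 3 were higher and 0 lower (median 0.11, and -0.02 without KO-SFD-1303), and 9 were higher without KO-SFD-1318 and KO-SFD-1319. Col6a1, a chain of collagen VI, was at 16.9 to 20.8 FPM in WT and 21.6 to 27.9 FPM in KO kidneys (log2 fold change 0.37).

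Genes of immune and other admixed cells were read in the same way. Of 15 antigen presentation genes 4 were higher and 0 lower (median 0.28, and 0.05 on HFD), with H2-DMb1 at 13.7 to 19.4 FPM in WT and 21.7 to 39.2 FPM in KO kidneys (log2 fold change 0.73), H2-DMa at 0.48 and H2-D1 at 0.29. The 4 became 1 without WT-SFD-1309, KO-SFD-1318 or KO-SFD-1451 and 8 without WT-SFD-1694 (medians 0.18 to 0.43). None of 10 macrophage, 15 lymphocyte and plasma cell, 18 interferon or 16 tubule injury genes had an unadjusted p under 0.05, and these counts moved with single mice. All 10 macrophage genes had a positive sign (median 0.19), and 3 were higher without KO-SFD-1319, 2 without WT-SFD-1694 and 1 without KO-SFD-1451. Of the tubule injury genes 5 were higher without KO-SFD-1319, 3 without WT-SFD-1446 and 1 without WT-SFD-1695, KO-SFD-1303 or KO-SFD-1318. The median of the lymphocyte and plasma cell genes was -0.03, and without WT-SFD-1694 it was 0.85, with 1 gene higher. For the interferon genes it was -0.12, and without WT-SFD-1694 0.18, with 1 gene higher, while 1 was lower without WT-SFD-1309. Of 15 inflammation genes 2 were higher (4 without KO-SFD-1319, 1 without WT-SFD-1446, WT-SFD-1695 or KO-SFD-1318), among them Ccl5 (log2 fold change 1.09). Fat cell markers differed between mice of 1 group: Adipoq, adiponectin, was at 1.36, 11.5, 2.40 and 12.7 FPM in the WT and at 14.9, 3.02, 1.84 and 31.7 FPM in the KO kidneys, and Cidec, a lipid droplet gene, at 2.55, 16.2, 2.30 and 17.4 FPM against 30.3, 3.29, 4.29 and 48.7 FPM. WT-SFD-1446, WT-SFD-1695, KO-SFD-1303 and KO-SFD-1451 were the high ones, and the 2 KO mice with the shifted clock genes were not. The adipocyte list, whose most abundant gene was Lpl, summed to 717 to 1179 FPM in WT and 703 to 1748 FPM in KO kidneys, with 1 of 13 genes higher (Fabp4, log2 fold change 0.87) and a median of 1.12. The 1 became 4 without KO-SFD-1319, 2 without KO-SFD-1318 and 0 without any 1 of the other mice but WT-SFD-1446. Urothelial genes, from the renal pelvis, summed to 19.2 to 78.8 FPM in WT and 27.0 to 145 FPM in KO kidneys, and all 8 had a positive sign without a member at an unadjusted p under 0.05 (2 without KO-SFD-1319). The part of fat and pelvis in the other results was not tested. With KO-SFD-1318 and KO-SFD-1319 left out, 11 of the 13 adipocyte genes and 3 of the 8 urothelial genes were higher at that p, beside 3.32% of all genes in that fit.

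Of 57 genes of oxidative phosphorylation none had an unadjusted p under 0.05, but 53 had a positive sign on SFD (median 0.15, and -0.02 on HFD), and without KO-SFD-1303 there were 3 higher genes at that p. The positive signs numbered 46 without WT-SFD-1309 (median 0.081) and 29 without KO-SFD-1318. When KO-SFD-1318 and KO-SFD-1319 were left out, 27 of the 57 were positive (median -0.01). Of 18 fatty acid oxidation genes 1 was higher (3 without WT-SFD-1446) and 1 lower (2 without WT-SFD-1309), and of 16 PPAR-alpha targets 1 and 1, namely Angptl4, an inhibitor of lipoprotein lipase (33.1 to 77.5 FPM in WT, 60.2 to 98.2 FPM in KO, log2 fold change 0.73), and Ehhadh, a peroxisomal enzyme (774 to 1140 FPM against 578 to 785 FPM, log2 fold change -0.48). The lower PPAR-alpha targets numbered 5 without WT-SFD-1309 and 4 without WT-SFD-1694, and the median, -0.06 with all mice, was -0.15, -0.24 and, without WT-SFD-1446, 0.22. Higher ones numbered 1 to 3 without single mice, with 3 without KO-SFD-1303. Of 52 Cyp genes 6 were higher and 2 lower. Cyp39a1, an oxysterol hydroxylase, was at 6.02, 5.97, 8.77 and 6.19 FPM in the WT and at 10.8, 11.2, 10.8 and 9.72 FPM in the KO kidneys, without overlap (log2 fold change 0.64, adjusted p = 0.371, and -0.11 on HFD). Of 19 Gst genes 3 were higher and of 13 Ugt genes none was, though 12 of the 13 signs were negative. Of 16 antioxidant genes 1 was lower, Txnrd1, a thioredoxin reductase (log2 fold change -0.28), and of 5 androgen-dependent kidney genes none had an unadjusted p under 0.05. Without single mice the immediate early, endothelial, pericyte and mesangial, collecting duct and antioxidant lists had 0 to 2 genes at that p in each direction. Of 5 Sult genes 1 was higher, of 9 Aqp genes none, of 27 Col genes 1 was higher and 1 lower, and of 14 Rgs genes 1 was higher. Among markers of blood (5 tested), neutrophils (2), the adrenal gland (1 of 12 listed) and skeletal muscle (2), the 1 gene at an unadjusted p under 0.05 was Actn3, a muscle actinin, at 0.538 to 2.30 FPM in WT and 1.64 to 3.503 FPM in KO kidneys. Of 32 genes with primers listed by the study, 1 was higher and 1 lower. Without WT-SFD-1309 it was 2 higher and 0 lower, without WT-SFD-1446 2 and 2, and without WT-SFD-1694 1 and 2. Over the 560 tested genes of the 38 lists that are not made by symbol prefix, 38 were higher and 46 lower at an unadjusted p under 0.05, and none passed an adjusted p of 0.05 in edgeR's quasi-likelihood test.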

How the data were processed

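RNA of 16 kidneys and 14 aortae was sequenced. Kidney reads were clipped and trimmed by the sequencing company, while cutadapt is described for the aortae and also named in the submitters' processing notes. The authors aligned reads to mm10 with TopHat and assigned them to genes by featureCounts, and the deposited values are raw counts, 1 column per mouse. The strand setting and the handling of multiply mapped reads are not given in the sources used here. Counts were scaled by TMM factors and filtered by filterByExpr, and all 16 kidney libraries were fitted with edgeR 4.0.16 (glmQLFit, glmQLFTest) in R 4.3.3, with 1 coefficient per group and Benjamini-Hochberg adjustment over 15034 genes. The aortae, sequenced elsewhere, were fitted apart. DESeq2 1.42.0 and edgeR's exact test were alternatives. P values measure the spread between mice, 4 per group. In data simulated for KO against WT on SFD over 15034 genes, edgeR recovered 34.3% of genes changed 1.5-fold, 76.1% of those changed 2-fold and 98.5% of those changed 4-fold. Only genes with a mean above 1 FPM were changed, and counts were drawn independently for each gene and library. The simulated data lack shifts that many genes share in 1 mouse, so these shares do not carry over to genes with such shifts. Gene positions came from GENCODE vM21.

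The members and lists were chosen with earlier results of these data known. Named genes are Egfr, genes past an adjusted p of 0.05, up to 6 per direction by p without overlap, the 5 most extreme ratios per direction by effect size, and up to 3 members per list by p. Genes of both diets, the CaMKII subunits, Pisd, Erbb2, Sphk1, Tfrc, Ndrg1, Ccl28, Per1, Calb1, Trpv5, Lrp2, Umod, the amino acid genes and marker genes given as levels were chosen after their values were seen. A few listed genes are counted in their lists but not reported here by name.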

Additional observations from a re-analysis of the deposited data

Results flagged for a closer look

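In 200 groups of 4 kidneys (100 genes in 2 groups), Dixon's test at the 95% level marked 12, and chance alone marks about 1 in 20 such groups. KO-SFD-1318 was the mouse apart in 5 of them. There Nrg2 was at 0.431 FPM (0.868 to 0.929 FPM in the other 3 KO kidneys), Phgdh at 18.3 FPM (7.81 to 9.36 FPM), Kl at 292 FPM (395 to 415 FPM), Wfdc15b at 408 FPM (229 to 252 FPM) and H2-DMb1 at 39.2 FPM (21.7 to 23.7 FPM). KO-SFD-1319 was apart for Etaa1, at 5.06 FPM beside 5.77 to 5.79 FPM, and for Aqp2, at 627 FPM beside 1159 to 1260 FPM. KO-SFD-1451 was apart for Slc22a8, at 391 FPM beside 259 to 275 FPM, and KO-SFD-1303 for Col6a1, at 27.9 FPM beside 21.6 to 22.6 FPM. Among the WT kidneys, WT-SFD-1309 was apart for Acsl3 (19.4 FPM, others 27.0 to 28.3 FPM), WT-SFD-1446 for Acta2 (33.3 FPM, others 22.1 to 23.6 FPM) and WT-SFD-1694 for Cyp39a1 (8.77 FPM, others 5.97 to 6.19 FPM).

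Ccl28 separated the genotypes in opposite directions on the 2 diets. All KO kidneys lay below all WT kidneys on SFD, and the log2 fold change on SFD minus that on HFD was -1.69. The edgeR test of that difference did not pass over all genes (adjusted p = 1). With the same pattern of opposite separation there were 4 genes of the 15034 tested, beside 9 that separated in the same direction on both diets. Of all genes tested, 599 separated the genotypes on SFD and 199 on HFD. Whether 4 such genes exceed what chance gives was not tested.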

How the results depend on the processing

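Genes under an adjusted p of 0.05 on SFD numbered 2 in edgeR's quasi-likelihood test. The count was 26 with DESeq2, 15 with the exact test, 5 without the low count filter, 1 for protein-coding genes only, 0 with library totals and 4 without KO-SFD-1318 and KO-SFD-1319, an alternative chosen after seeing the data. Those 4 genes were Actg2, Hist1h1d, Klb and Ppp1r3c, and neither Camk2b nor Pisd-ps2 was among them. Leaving out single mice gave 0 to 4 (0 without KO-SFD-1303, KO-SFD-1318 or KO-SFD-1319). Under 0.001 there were 4 genes with DESeq2, 5 with the exact test, 1 without WT-SFD-1694 and WT-SFD-1695 and 0 to 1 without single mice. On HFD the count of 0 became 1 with DESeq2, 2 with the exact test, 1 with edgeR's legacy test, 1 without the filter, 1 without WT-SFD-1694 and WT-SFD-1695 and 0 to 1 without single mice. For the difference between diets it became 1 with DESeq2 and 1 without WT-SFD-1694 and WT-SFD-1695, and stayed 0 without single mice. The aorta count of 12 became 21 with DESeq2. Genes called by effect size numbered 59, and 309 without the FPM limit, 143 without WT-SFD-1694 and WT-SFD-1695, 155 without KO-SFD-1318 and KO-SFD-1319 and 46 to 123 without single mice. The log2 fold change of Egfr was -0.0095 (without WT-SFD-1446) to 0.1637 without single mice.

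Camk2b kept its sign throughout, but its adjusted p was 0.118 when only the SFD groups were fitted, 0.0661 with library totals, and above 0.05 without WT-SFD-1446, KO-SFD-1303, KO-SFD-1318 or KO-SFD-1319, and 0.201 without both KO-SFD-1318 and KO-SFD-1319. Pisd-ps2 missed 0.05 with library totals and without any 1 of WT-SFD-1694, WT-SFD-1695 or the 4 KO mice, and its adjusted p was 0.341 without both WT-SFD-1694 and WT-SFD-1695 and 0.112 without both KO-SFD-1318 and KO-SFD-1319. The sign turned for the genes below, given with their range without single mice. Erbb2 ran from -0.0185 to 0.0774 (-0.0185 without WT-SFD-1695, -0.0002 without KO-SFD-1319), Pisd from -0.1211 to 0.0001 (without KO-SFD-1303), Egf from -0.1097 to 0.0835 (0.0835 without KO-SFD-1318, 0.0622 without WT-SFD-1309), Aqp2 from -0.0462 (without WT-SFD-1695) to 0.474, Ren1 from -0.485 to 0.2498 (without WT-SFD-1446) and Adipoq from -0.0357 (without KO-SFD-1451) to 1.4356. Without WT-SFD-1694 and WT-SFD-1695, Erbb2 was -0.0752, Pisd 0.0362 and Aqp2 -0.1162. Without KO-SFD-1318 and KO-SFD-1319, Erbb2 was -0.0149, Egf 0.0231 and Adm2 -0.2148 (2.82 with all mice). The cause was not tested. Of the other values for single genes, 1709 kept direction and side of the threshold, 16 lost and 30 gained a call. No paired analysis was possible because the labels give each mouse its own number and none that pairs mice across genotypes, and replicates were numbered in accession order only.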
